A study of Mus musculus with 12 samples.

Results

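The genes described here were the 7 mammalian sirtuins (Sirt1 to Sirt7), the 2 enzymes that start NAD salvage from vitamin B3 (Nampt and Naprt) and the NAD-degrading surface enzyme Cd38. They were chosen by name, as 10 of the 53465 genes in a table of liver RNA-seq read counts, and all 10 had reads in every liver. The table covered 12 livers of C57BL/6N mice: 4 young (3 months), 4 middle-aged (12 months) and 4 aged (18 months), each from a different animal. The labels name no transgene, deletion or treatment in any group, and the study's methods describe male mice, so the groups differed in age as labelled. Cells were not separated, and so fewer cells of a type cannot be told apart from less RNA per cell in any value below.

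NAD carries electrons in energy metabolism and is also consumed as a substrate. Sirtuins use it to remove acetyl and related groups from histones, transcription factors and enzymes, and release nicotinamide as they do so. Nampt rebuilds NAD from that nicotinamide, Naprt makes it from nicotinic acid, and the liver can also make it from tryptophan. Nampt transcription is known to follow the circadian clock, with SIRT1 acting together with CLOCK at its promoter. Cd38 is found on many immune cells.

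Values are read counts divided by a size factor for each library (normalized read counts), and differences between ages are log2 fold changes from DESeq2, called at an adjusted p under 0.05. The libraries held 8124312 to 10527159 gene counts. Young replicate 3 had 22284 genes detected and middle-aged replicate 1 had 19982, against 16361 to 17563 in the other 10 libraries. The composition of the spike-in RNA split the libraries into set A (replicates 1 and 2 of every age) and set B (replicates 3 and 4). The sets were balanced over age, and values within each set are given where they differ. The 8 hepatocyte markers summed to between 799538 and 1048220 normalized counts per liver, most of it Alb (means of 531475 in young and 657881 in aged livers), and all 8 were detected at every age. Of these 8, 6 had a log2 fold change below 0 for aged against young livers (median -0.17), 4 had an unadjusted p under 0.05 and 0 were called.

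A regulatory sequence shared with the clock was looked for first. The E-box CACGTG, the site that CLOCK and BMAL1 bind, was searched in the RefSeq promoter windows (GRCm38.p6, 250 bases before the start site and 50 bases after it). It reads the same on both strands. Of the 9 genes with a window (Naprt was not matched), Sirt1 alone contained it, and it did so at 2 positions, with the first base of the motif at -115 and at -43 from the start site. In all, 7.15% of 32851 windows held the motif and 195 windows (0.594%) held it more than once; 3 of 13 matched clock genes held it. The share of 7.15% counts windows, while the clock count is of genes, and some genes had more than 1 window (Sirt3 and Sirt6 had 2 each). The stretches around both sites are shown, with the motif in capitals, because no window of the other 8 genes held the motif. They lie at chr10:63339133-63339162 and chr10:63339061-63339090 on the minus strand. In GENCODE M21 no exon covers them: they lie upstream of the shorter Sirt1 transcripts and in an intron of a longer one. A match describes the letters and does not show binding.
Sirt1 site at -115: gcggcgcccggcCACGTGacccggcgtgtt
Sirt1 site at -43: ggaggggcgggtCACGTGacggggtttaaa

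None of the 10 genes was called in any comparison of ages. Between aged and young livers 0 of 10 were called, where 3.58% of the 13527 genes tested were called. Between middle-aged and young livers the count was 0 of 10 against 6.41% of 11333 genes, and between aged and middle-aged livers it was 0 of 9 tested against 1.14% of 10236 genes. The likelihood ratio test across the 3 ages called 0 of 10, with 6.96% of 12430 genes called. At these background shares, a list of 10 genes with no call is not a result about these genes; the sizes and intervals below say more. At an unadjusted p under 0.05 there were 0, 0 and 1 genes in the same 3 pairs of ages and 0 across the 3 ages. The edgeR quasi-likelihood test also called none. Groups without overlap were seen in 7.53%, 16% and 6.55% of all genes tested for the 3 pairs, and in 0 of the members tested.

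The 95% intervals limited how large a change could have been missed. For aged against young livers all 10 intervals lay within 2-fold in either direction and 9 of 10 lay within 1.5-fold. For middle-aged against young livers 10 lay within 2-fold and 7 within 1.5-fold. For aged against middle-aged livers 9 lay within 2-fold and 7 within 1.5-fold, and the Nampt interval alone left out 0. The median log2 fold change of the 10 genes was 0.05 between aged and young livers, -0.04 between middle-aged and young livers and, over the 9 genes tested, 0.05 between aged and middle-aged livers, while the medians of all genes tested were -0.00, 0.01 and 0.01.

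**Figure D1:**
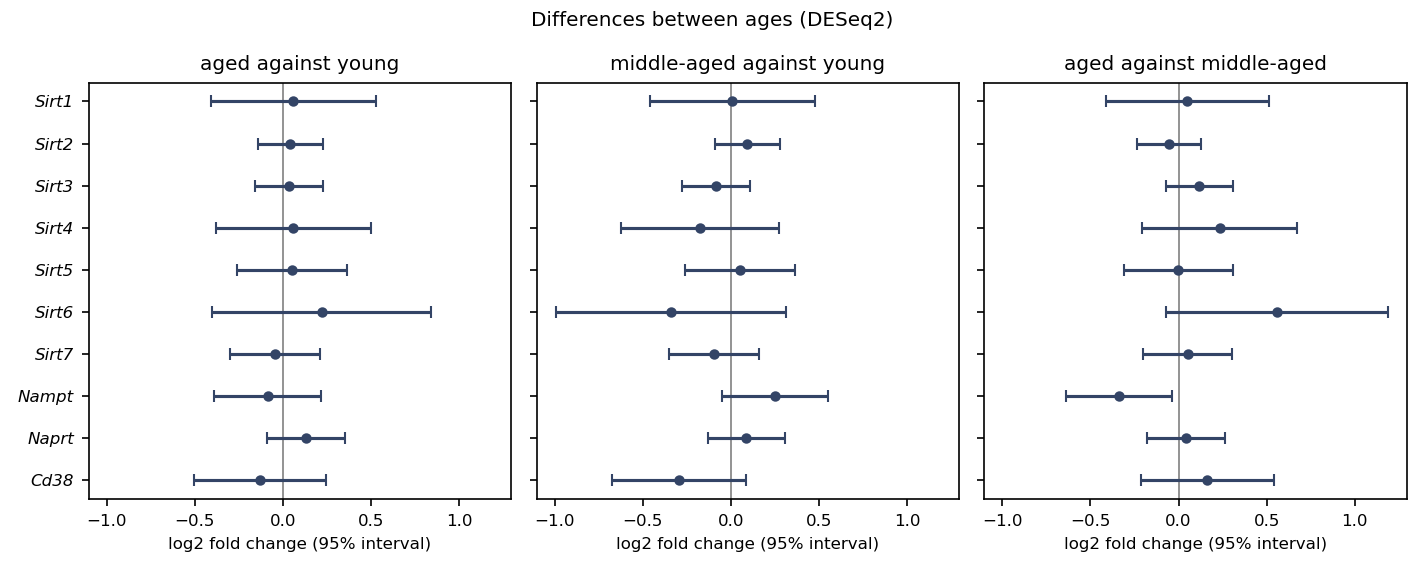
Log2 fold changes of the 10 genes (points) with 95% intervals (bars) from DESeq2 for 3 pairs of ages, with 0 marked by a line. The interval of Nampt for aged against middle-aged livers, -0.64 to -0.04, is the only one that leaves out 0, and Sirt6 has the widest intervals.

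Among the sirtuins, Sirt1 is the nuclear deacetylase that acts on p53, FOXO proteins and PGC-1alpha (ENSMUSG00000020063, chromosome 10, 63319005 to 63381704, minus strand, GRCm38). Young livers had 113, 85.3, 65.2 and 70.3 normalized counts, middle-aged livers 81.4, 109.5, 76.8 and 67.2, and aged livers 63.2, 83.8, 106 and 93.9, in the order of replicates 1 to 4. The 3 ages covered nearly one range. The means were 83.3 ± 21.3, 83.7 ± 18.2 and 86.7 ± 18.0 (SD, n = 4 each). Aged against young livers gave a log2 fold change of 0.06 (SE 0.24, 95% interval -0.41 to 0.53, DESeq2 adjusted p = 0.946), and for middle-aged against young livers it was 0.01 (adjusted p = 0.992). The aged-against-young value was -0.43 in set A and 0.56 in set B. The difference between the sets was 0.99 (SE 0.46, unadjusted p = 0.0321, adjusted p = 0.623 in DESeq2), a test chosen after seeing the data.

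Sirt6 and Sirt7 are the other mainly nuclear sirtuins. Sirt6 deacetylates histone H3 at telomeres and glycolytic gene promoters (ENSMUSG00000034748, chromosome 10, 81621785 to 81627797, minus strand), and it had the fewest reads of the 10 genes. Its normalized counts were 18.0, 19.1, 17.8 and 24.4 in young, 17.9, 18.0, 14.1 and 13.0 in middle-aged and 21.1, 22.2, 28.8 and 20.6 in aged livers. All 4 aged livers lay above all 4 middle-aged ones, while the young livers overlapped both. It was not among the genes tested for that pair. Aged exceeded middle-aged livers by a log2 fold change of 0.56 (SE 0.32, 95% interval -0.07 to 1.19, DESeq2 unadjusted p = 0.0815), and DESeq2's filter on low means gave it no adjusted p. It was 0.22 for aged against young livers (adjusted p = 0.817) and -0.34 for middle-aged against young livers (adjusted p = 0.607). These values rest on 13 to 33 reads per library.

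Sirt7 is the nucleolar sirtuin linked to transcription of ribosomal RNA genes (ENSMUSG00000025138, chromosome 11, 120618372 to 120625240, minus strand). Young livers had 375, 485, 349.5 and 344 normalized counts, middle-aged livers 367, 356, 356 and 372, and aged livers 423, 394, 313 and 375. The 4 middle-aged livers spanned little (SD 7.99), and the highest and lowest values came from young replicate 2 and aged replicate 3. Its log2 fold changes were -0.04 (aged against young, adjusted p = 0.927), -0.10 (middle-aged against young, adjusted p = 0.736) and 0.05 (aged against middle-aged, adjusted p = 0.963). Sirt7 shares 124 exonic bases with Mafg on the same strand. The handling of reads on such bases is not given, so its count could be too high or too low.

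Sirt2 is the mainly cytosolic deacetylase, known for acting on tubulin (ENSMUSG00000015149, chromosome 7, 28766735 to 28788661, plus strand). Its normalized counts were 523, 487, 481 and 489 in young, 518, 497, 494 and 608 in middle-aged and 515, 556, 484 and 487 in aged livers. Its intervals of the log2 fold change were the narrowest of the genes described here in each of the 3 pairs of ages. They lay within -0.23 to 0.28. The values themselves were 0.04 (adjusted p = 0.893), 0.10 (adjusted p = 0.607) and -0.05 (adjusted p = 0.943) for aged versus young, middle-aged versus young and aged versus middle-aged livers.

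The mitochondrial sirtuins are Sirt3, Sirt4 and Sirt5. Sirt3, the main mitochondrial deacetylase (ENSMUSG00000025486, chromosome 7, 140863666 to 140882309, minus strand), had 457, 458, 523 and 474 normalized counts in young livers, 509, 412, 434 and 448 in middle-aged and 491, 479, 448 and 539 in aged livers. The groups overlapped throughout, and the log2 fold changes were 0.03 (adjusted p = 0.928), -0.09 (adjusted p = 0.674) and 0.12 (adjusted p = 0.812) for the same pairs. Its exons overlap those of Ric8a by 418 bases and of Psmd13 by 342 bases on the opposite strand. The labels name a directional library kit, but whether counting used the strand is not given in the sources used here.

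Sirt4 restrains glutamate dehydrogenase in mitochondria (ENSMUSG00000029524, chromosome 5, 115478010 to 115484725, minus strand). It had 74.3, 57.3, 80.6 and 56.6 normalized counts in young, 60.6, 63.7, 67.1 and 46.1 in middle-aged and 94.3, 62.6, 66.4 and 57.2 in aged livers. Aged replicate 1 was the highest liver and middle-aged replicate 4 the lowest, with the other livers mixed between them. The log2 fold changes were 0.06 (95% interval -0.38 to 0.50, adjusted p = 0.942) for aged against young, -0.17 (adjusted p = 0.721) for middle-aged against young and 0.23 (adjusted p = 0.850) for aged against middle-aged livers. Sirt5 removes succinyl and malonyl groups and acts on the urea cycle enzyme CPS1 (ENSMUSG00000054021, chromosome 13, 43365496 to 43395203, plus strand). Its normalized counts were 129, 134, 109 and 142 in young, 156, 144, 117 and 116 in middle-aged and 158, 118, 131 and 126 in aged livers. The means of 128 ± 13.9, 133 ± 19.7 and 133 ± 17.0 (SD, n = 4 each) differed by less than the spread within an age, with log2 fold changes of 0.05 for both older ages against young livers (adjusted p = 0.931 for aged and 0.898 for middle-aged).

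**Figure D2:**
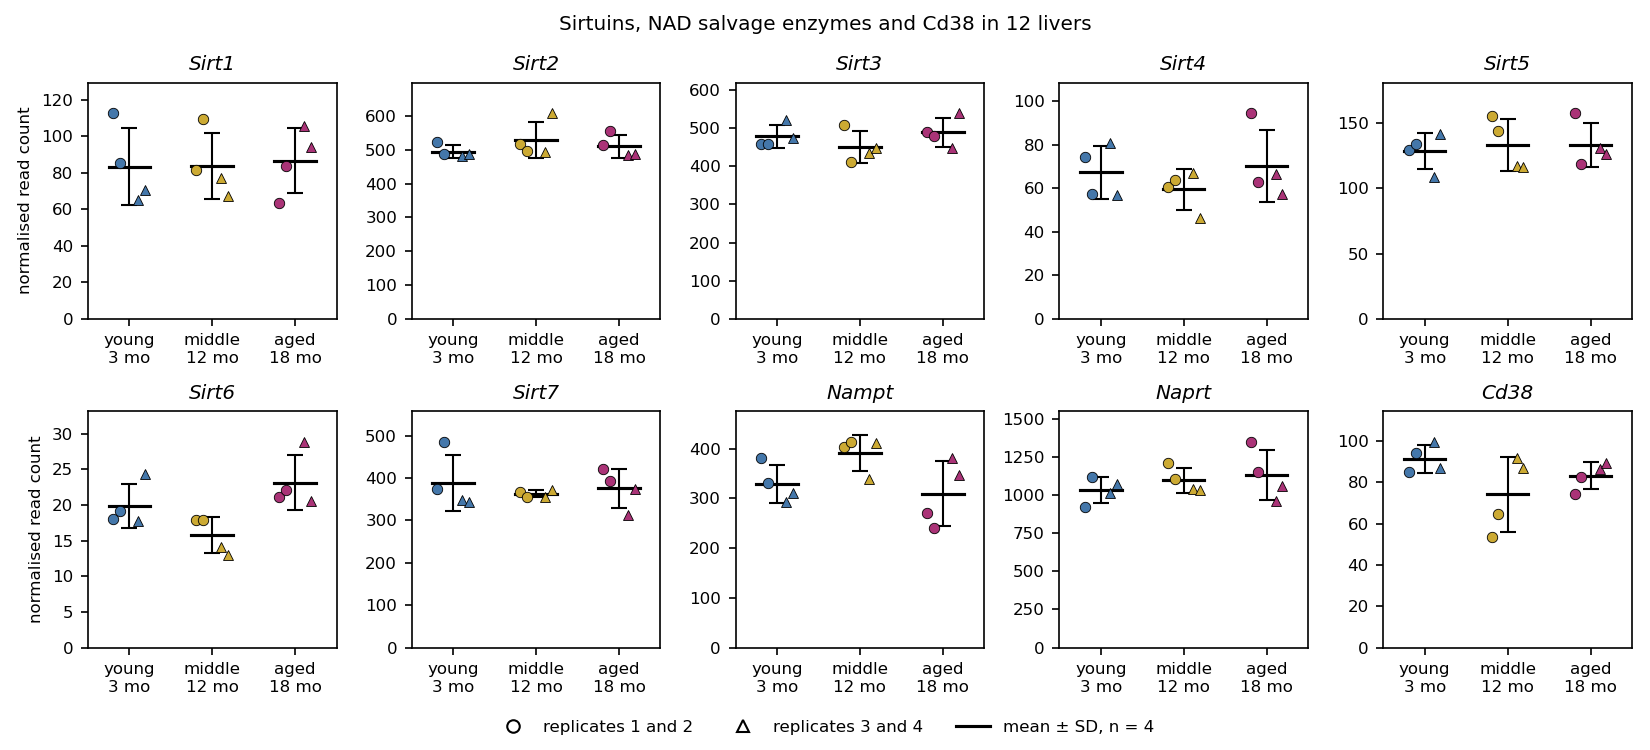
Normalized read counts of the 10 genes in each liver, by age, on linear axes from 0; circles are replicates 1 and 2, triangles replicates 3 and 4, and lines the mean with bars of ± 1 SD (n = 4). Ages overlap in every panel except aged against middle-aged livers in Sirt6, and in aged livers the Nampt values of 270.0 and 241 (circles) lie below those of 381 and 346 (triangles).

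Nampt, the rate-limiting enzyme of salvage from nicotinamide (ENSMUSG00000020572, chromosome 12, 32819545 to 32853349, plus strand), came closest to a difference between ages. Young livers had 380.0, 331, 293 and 310.5 normalized counts, middle-aged livers 403, 413, 338 and 412, and aged livers 270.0, 241, 381 and 346. Of the middle-aged livers 3 lay above every young and aged liver, and replicate 3 lay among them. The means were 329 ± 37.7, 392 ± 35.8 and 309 ± 65.1 (SD, n = 4 each). Aged livers were 0.79 times middle-aged livers, a log2 fold change of -0.34 (SE 0.15, 95% interval -0.64 to -0.04, DESeq2 unadjusted p = 0.0275, adjusted p = 0.389), which failed the correction. It was 0.25 for middle-aged against young (adjusted p = 0.337) and -0.09 for aged against young livers (adjusted p = 0.867). Across the 3 ages the adjusted p was 0.291.

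Nampt values lay apart by spike-in set in both young and aged livers, in opposite directions: set A was higher in young livers (380.0 and 331 against 293 and 310.5) and lower in aged ones. For aged against middle-aged livers the log2 fold change was -0.67 in set A (adjusted p = 0.388) and -0.04 in set B (adjusted p = 0.999). For aged against young livers it was -0.48 in set A and 0.27 in set B, and the difference between the sets was 0.75 (SE 0.26, DESeq2 unadjusted p = 0.0044, adjusted p = 0.232), where 0.732% of 10799 genes were called. No gene of the 10 was called in that test for any pair of ages; for middle-aged against young livers 0.423% of 13005 genes were called and for aged against middle-aged livers 0.996% of 12454.

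Genes of the circadian clock were read beside Nampt, in the same libraries. Of 14 clock genes, 1 of 14 tested was called between aged and young livers (3.58% of all genes), 6 of 14 between middle-aged and young livers (6.41%), 8 of 13 between aged and middle-aged livers (1.14%) and 9 of 14 across the 3 ages (6.96%). Those called across the ages were Npas2, Cry1, Cry2, Per3, Dbp, Arntl, Nr1d2, Nfil3 and Tef, and the smallest adjusted p was that of Per3 (3.1e-08). Between aged and middle-aged livers Cry2, Per3, Dbp, Nr1d2 and Tef were lower in aged livers, and Arntl, Cry1 and Nfil3 were higher. Dbp, a clock output factor, had 188, 220.3, 173 and 129.8 normalized counts in young, 908, 657, 503 and 687 in middle-aged and 173, 157, 18.4 and 52.7 in aged livers. Middle-aged livers stood above both other ages without overlap, with a log2 fold change of 1.95 against young (adjusted p = 0.0142) and of -2.78 for aged against middle-aged livers (adjusted p = 0.000355). Arntl, which encodes BMAL1, had 64.8, 58.6, 154 and 136 in young, 34.8, 70.9, 88.3 and 44.1 in middle-aged and 106, 121, 249 and 228 in aged livers, and aged livers exceeded middle-aged ones (log2 fold change 1.56, adjusted p = 0.0117).

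Of the clock genes set by name beside Nampt, Clock spanned 340.2 to 604 normalized counts over the aged livers and 376 to 479 over the others, Per2 spanned 63.8 to 156 over all 12, and neither was called in a pair of ages. Nr1d1, which encodes the repressor REV-ERBalpha, had 595, 526, 745 and 833 in young, 811, 988, 717 and 660.5 in middle-aged and 845, 833, 447 and 432 in aged livers. As for Nampt, young and aged livers lay apart by spike-in set in opposite directions, with replicates 1 and 2 low in young and high in aged livers. The difference between the sets was called for Nr1d1 for aged against young livers (-1.42, SE 0.22) and for middle-aged against young livers (-0.88, adjusted p = 0.0193), and not for aged against middle-aged livers (-0.55, adjusted p = 0.449). For Dbp it was called for aged against young livers (-1.78, SE 0.46, adjusted p = 0.0212) and for aged against middle-aged livers (-1.82, adjusted p = 0.00977). Arntl was lower in replicates 1 and 2 than in replicates 3 and 4 in both young and aged livers, and its difference between the sets was -0.16 for aged against young livers (SE 0.52, unadjusted p = 0.752) and was not called. The time of day at which livers were taken is not given in the labels, and its part in these values was not tested.

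**Figure D3:**
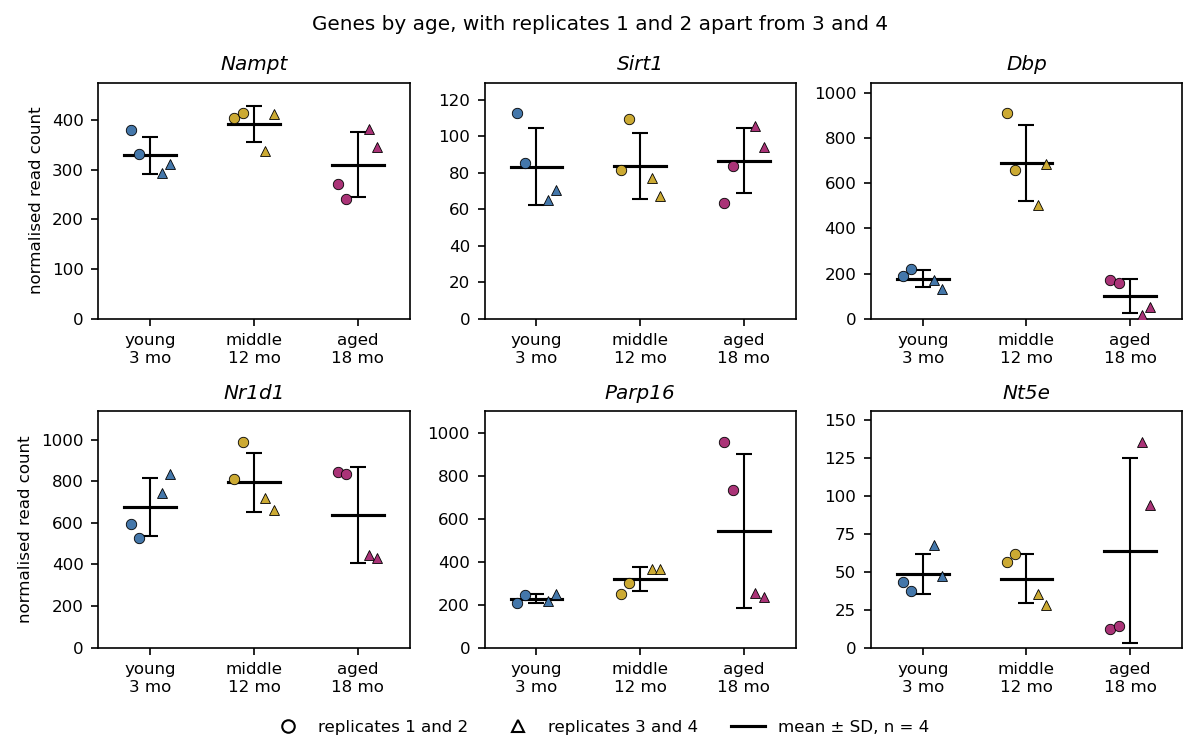
Normalized read counts of Nampt, Sirt1, Dbp, Nr1d1, Parp16 and Nt5e in each liver by age, on linear axes from 0; circles are replicates 1 and 2 (set A), triangles replicates 3 and 4 (set B), and lines the mean with bars of ± 1 SD (n = 4). Circles and triangles separate in the aged livers of all 6 panels, which were chosen after their values were seen, and also in the young livers of Nampt, Sirt1, Dbp and Nr1d1. The middle-aged livers of Sirt1 and Nr1d1 separate as well. With 2 livers per set at an age, values can separate without a set difference, and the share over all genes was not counted.

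Naprt, which converts nicotinic acid on the Preiss-Handler route (ENSMUSG00000022574, chromosome 15, 75890956 to 75894481, minus strand), had the highest counts of the 10 genes. Young livers had 923, 1121, 1014 and 1074 normalized counts, middle-aged livers 1214, 1107, 1043 and 1032, and aged livers 1349.8, 1153, 961 and 1062. Aged replicate 1 was the highest, and the ages otherwise overlapped. The means of 1033 ± 85.1, 1099 ± 83.6 and 1132 ± 165 (SD, n = 4 each) gave a log2 fold change of 0.13 for aged against young livers (SE 0.11, 95% interval -0.09 to 0.35, adjusted p = 0.636). Of its 2344 exonic bases 277 are shared with Eef1d on the same strand. How reads on shared bases were counted is not given, so its count could be too high or too low.

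Cd38 hydrolyses NAD and makes the calcium messenger cyclic ADP-ribose (ENSMUSG00000029084, chromosome 5, 43868553 to 43912375, plus strand). Its normalized counts were 84.9, 94.2, 99.5 and 86.9 in young, 53.6, 64.6, 91.8 and 87.2 in middle-aged and 74.3, 82.8, 86.5 and 89.4 in aged livers. Middle-aged replicates 1 and 2 were the lowest of the 12 livers, and the other 10 lay between 74.3 and 99.5. Its log2 fold change was -0.13 for aged against young (95% interval -0.51 to 0.24, adjusted p = 0.821), -0.29 for middle-aged against young (adjusted p = 0.382) and 0.16 for aged against middle-aged livers (adjusted p = 0.888). Between middle-aged and young livers it was -0.60 in set A and -0.07 in set B.

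Marker sums of cells that could carry Cd38 are given beside it. The 10 Kupffer cell and macrophage markers, all detected, summed to 3884 to 7051 normalized counts in young, 3439 to 4672 in middle-aged and 4026 to 6721 in aged livers. Of these, 8 of the 10 had a log2 fold change below 0 for aged against young livers (median -0.09). The 1 gene called was Marco, which ran the other way (2.46, adjusted p = 0.0178), with 36.7 to 79.1 normalized counts in young and 96.1 to 791 in aged livers; without aged replicate 1 it was 1.43 (adjusted p = 0.0273). In edgeR its adjusted p was 0.0750, and without young replicate 1, 2 or 3 it was 0.0526 to 0.0858 in DESeq2. For middle-aged against young livers 9 of the 10 markers lay below 0 (median -0.39), 4 with an unadjusted DESeq2 p under 0.05 and 0 called. For aged against middle-aged livers all 10 lay above 0 (median 0.27), 2 with an unadjusted DESeq2 p under 0.05 and 0 called. The 6 B and plasma cell markers summed to 39.1 to 226, 38.7 to 587 and 98.3 to 173. The 6 T and NK cell markers were near 0 at every age, at 25.5 to 53.3 in young, 23.0 to 27.8 in middle-aged and 13.0 to 15.4 in aged livers. The aged sums lay below all others. Only 3 of the 6 were tested for aged against young livers, all 3 with a log2 fold change below 0, 2 with an unadjusted p under 0.05 and 0 called, and none was tested for the other pairs. The 5 neutrophil markers summed to 46.9 to 321, 15.9 to 58.1 and 27.7 to 110.4. The part of these cells in the Cd38 values was not tested.

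**Figure D4:**
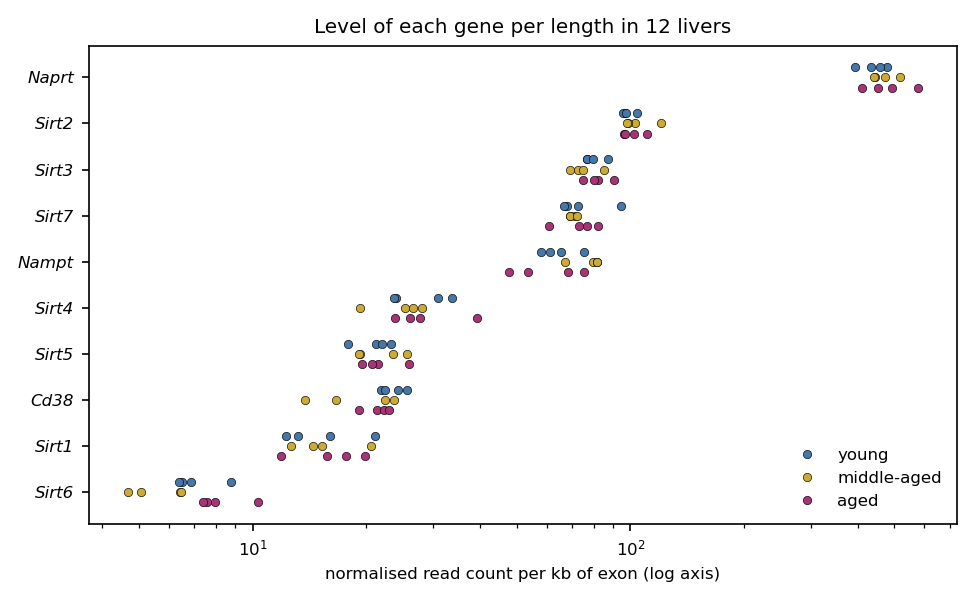
Normalized read counts per kb of exon (horizontal log axis) of the 10 genes, ordered by their mean over 12 livers; each point is a liver, coloured by age. Naprt stands above the rest at 394 to 576 per kb and Sirt6 below it at 4.68 to 10.4 per kb. The ages overlap within each gene, except aged against middle-aged livers in Sirt6.

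Levels were compared between genes only per length, as normalized counts per kb of exon averaged over the 12 livers. Naprt was highest at 464 ± 48.9 per kb (SD, n = 12), followed by Sirt2 at 102 ± 7.44, Sirt3 at 79.2 ± 6.26, Sirt7 at 73.0 ± 8.49 and Nampt at 67.9 ± 11.3. A second tier held Sirt4 at 27.3 ± 5.28, Sirt5 at 21.6 ± 2.56, Cd38 at 21.3 ± 3.33 and Sirt1 at 15.9 ± 3.27, and Sirt6 was lowest at 7.03 ± 1.54. Neighbours whose ranges did not overlap were Naprt and Sirt2, Sirt2 and Sirt3, Nampt and Sirt4, and Sirt1 and Sirt6. The other neighbouring pairs (Sirt3 and Sirt7, Sirt7 and Nampt, Sirt4 and Sirt5, Sirt5 and Cd38, Cd38 and Sirt1) overlapped in range. With the longest transcript as the length, Sirt4 and Sirt5 changed places. Naprt made up 47.8 to 57.6% of the summed per-kb level of the 10 genes in a liver, and Sirt1 1.19 to 2.56%.

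Pairs of the 10 genes were compared over the 12 livers, as log2 values. Of the 45 pairwise correlations 23 were positive, 2 had an unadjusted p under 0.05 (permutation test, 100000 permutations) and 0 passed the Benjamini-Hochberg adjustment. The strongest was between Sirt5 and Cd38 (Pearson's r = -0.74, permutation p = 0.00363, adjusted p = 0.163; Spearman's rho = -0.69, permutation p = 0.0172, adjusted p = 0.760). Without the 2 livers farthest from the median of Sirt5 r was -0.60, and within the sets it was -0.68 in set A and -0.75 in set B. The other pair was Sirt5 and Naprt (r = 0.61, permutation p = 0.0319, adjusted p = 0.718, and rho = 0.62, permutation p = 0.0338, adjusted p = 0.760). That r was 0.14 without the 2 livers farthest from the median of Sirt5, 0.59 in set A and 0.18 in set B. Leaving out the farthest livers narrows the range of Sirt5, which by itself can lower r.

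The genes whose profile over the 12 livers was most like each of the 10 were taken from 8887 genes with a mean of at least 50 normalized counts, by Pearson's r of log2 values, as a description with no test. For Nampt they were Pogz (r = 0.90), Cfl2 (0.87) and Plcb1 (0.87). For Sirt1 they were Sppl2b (0.88), Tmem135 (0.86) and Zfp451 (0.85), and for Sirt7 Nlrp6 (0.95), Trafd1 (0.93) and Fam167b (0.93). Naprt was most like Ptms (0.93), Poldip2 (0.93) and Fuca1 (0.92), and Cd38 like Zfp513 (0.90), 1810030O07Rik (0.90) and Cyth4 (0.89). The nearest genes to Sirt4 were Brf2 (0.90), 1300002E11Rik (0.88) and Gtf3c5 (0.84). For Sirt2, Sirt3 and Sirt5 the nearest genes were ENSMUSG00000079834 (0.84), Rdm1 (0.82) and Prdx6 (0.82). Sirt6 was below the limit of 50. Each of these is the top of 8887 correlations over the same 12 livers.

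Around these genes, 55 further genes of NAD metabolism and SIRT1 regulation were read from lists by role. Between aged and young livers 5 of 51 tested were called, 2 higher (1.87% of all genes tested were called higher) and 3 lower (1.71% lower), against 3.58% of all genes in either direction. Between middle-aged and young livers 1 of 48 was called, higher (3.51% of all genes were called higher and 2.9% lower), and between aged and middle-aged livers 1 of 48, lower (0.537% higher and 0.606% lower). Across the 3 ages 4 of 49 were called (6.96%). The median log2 fold change of the lists was -0.02, -0.01 and -0.04 in the 3 pairs of ages. The edgeR test called 0 of these genes in any comparison.

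Of 9 genes tested on the route from tryptophan to NAD, Tdo2 and Acmsd were called between aged and young livers. Tdo2, the liver enzyme that opens this route, had 22772, 20802, 17612 and 19798 normalized counts in young, 17393, 17233, 19038 and 15967 in middle-aged and 16181, 15402, 13031 and 14588 in aged livers. All aged livers lay below all young ones. Aged against young livers differed by -0.45 on the log2 scale (SE 0.10, adjusted p = 0.000514), at -0.46 in set A and -0.44 in set B, and it was called without any 1 of the 8 livers; in edgeR its adjusted p was 0.0545. Acmsd, which diverts an intermediate of the same route away from NAD, was 629, 499, 599.5 and 553 in young, 402, 396, 544 and 384 in middle-aged and 521, 354, 225 and 299 in aged livers. Its log2 fold change was -0.71 (SE 0.21, adjusted p = 0.0326), with -0.37 in set A and -1.14 in set B (adjusted p = 3.1e-05). Each set held 2 livers per age. The difference between the sets was -0.77 (SE 0.34, DESeq2 adjusted p = 0.553) and was not called. Without any 1 liver other than aged replicate 1, the adjusted p of Acmsd for aged against young livers rose to between 0.0506 and 0.129.

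Qprt, the step of this route that makes the NAD precursor nicotinic acid mononucleotide, had 2408 to 2655 normalized counts in young and 1809 to 2571 in aged livers (log2 fold change -0.22, adjusted p = 0.240). Of the 9 tryptophan-route genes tested 8 had a log2 fold change below 0 for aged against young livers, 2 of them called (Tdo2 and Acmsd). The median of the 9 was -0.15, against -0.00 over all genes tested, of which 1.71% were called lower. Acmsd diverts an intermediate away from NAD, so the 8 genes do not all act toward NAD.

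Salvage beyond Nampt and Naprt gave no call, with 0 of 5 genes tested for aged against young livers. Nmnat1, the nuclear enzyme of the last step of NAD synthesis, had 125 to 178 normalized counts in young and 120.4 to 142 in aged livers (log2 fold change -0.16, adjusted p = 0.771), and the mitochondrial Nmnat3 had 43.8 to 67.4 and 57.2 to 82.2 (0.21, adjusted p = 0.716). Nmrk1, the nicotinamide riboside kinase, had 70.0 to 98.7 in young and 76.3 to 129.6 in aged livers (0.37, adjusted p = 0.463). Young and aged livers overlapped in each of Nmnat1, Nmnat3 and Nmrk1.

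Nnmt, which methylates nicotinamide and so takes it out of salvage, was the 1 of 3 clearance genes called. It had 1970.1, 3864, 2369 and 2415 normalized counts in young, 2167, 1849, 1928 and 1709.8 in middle-aged and 2386, 1528, 932 and 1170.1 in aged livers. Young replicate 2 stood high, and aged replicate 1 lay among the young livers. The log2 fold change of aged against young livers was -0.82 (SE 0.25, adjusted p = 0.0389), with -0.57 in set A (adjusted p = 0.643) and -1.19 in set B (adjusted p = 5.63e-14). Each set held 2 livers per age. The difference between the sets was -0.61 (SE 0.37, DESeq2 adjusted p = 0.868) and was not called. Nnmt passed the threshold for aged against young livers without young replicate 1 or aged replicate 1. It did so in no other fit that left out 1 liver, where the adjusted p was 0.0913 to 0.269.

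Among 16 other NAD-consuming enzymes 1 was called between aged and young livers. Parp4, the PARP of vault particles, had 77.5, 52.2, 73.5 and 69.3 normalized counts in young, 83.4, 102, 104 and 109 in middle-aged and 84.3, 115, 98.8 and 116 in aged livers. Young livers lay below all others without overlap. The log2 fold change of aged against young livers was 0.60 (SE 0.18, adjusted p = 0.0378), at 0.62 in set A and 0.59 in set B, and without any 1 of replicates 2, 3 and 4 of either age its adjusted p was 0.0819 to 0.205. Parp1, the main DNA damage PARP, was 292 to 432 in young and 365 to 441 in aged livers (0.04, adjusted p = 0.935). Bst1, the paralogue of Cd38, varied from 5.78 to 108 over the 12 livers (0.34 for aged against young, adjusted p = 0.895).

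Of 9 genes of NADP formation, transhydrogenation and transport, Nnt and Nadk were called. Nnt is the mitochondrial transhydrogenase, and 3339 of its 7037 exonic bases are shared, on the same strand, with another identifier of the same symbol, so its count is uncertain. It had 859.8, 688, 786 and 794 normalized counts in young, 882, 952, 833 and 974 in middle-aged and 920.3, 926, 1084 and 978 in aged livers. Aged livers lay above young ones without overlap (log2 fold change 0.32, SE 0.09, adjusted p = 0.0249; 0.26 in set A and 0.38 in set B), and the adjusted p was 0.0591 to 0.165 without any 1 of young replicates 2, 3 and 4 and aged replicates 3 and 4. Nadk, the cytosolic NAD kinase, had 1672, 1527, 1694 and 2021 in young and 2524, 2325, 1865 and 2176 in middle-aged livers. It was higher in middle-aged livers (0.36, SE 0.11, adjusted p = 0.0286), at 0.60 in set A and 0.11 in set B, and without any 1 of young replicates 1, 2 and 3 and middle-aged replicates 1, 2 and 4 its adjusted p was 0.0617 to 0.145. Its mitochondrial counterpart Nadk2 had 1354 to 1853 in young and 1409 to 1868 in aged livers (0.03, adjusted p = 0.936).

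Of 10 regulators and partners of SIRT1, Foxo3 was called. Foxo3, a transcription factor that SIRT1 deacetylates, had 417, 327, 369.7 and 359 normalized counts in young, 443, 475, 434 and 419 in middle-aged and 348, 336, 249.9 and 271 in aged livers. All middle-aged livers lay above all young and all aged ones. The log2 fold change of aged against middle-aged livers was -0.56 (SE 0.12, adjusted p = 0.0028), with -0.42 in set A and -0.70 in set B, and without aged replicate 4 its adjusted p was 0.0524. For aged against young livers it was -0.29 (adjusted p = 0.198).

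**Figure D5:**
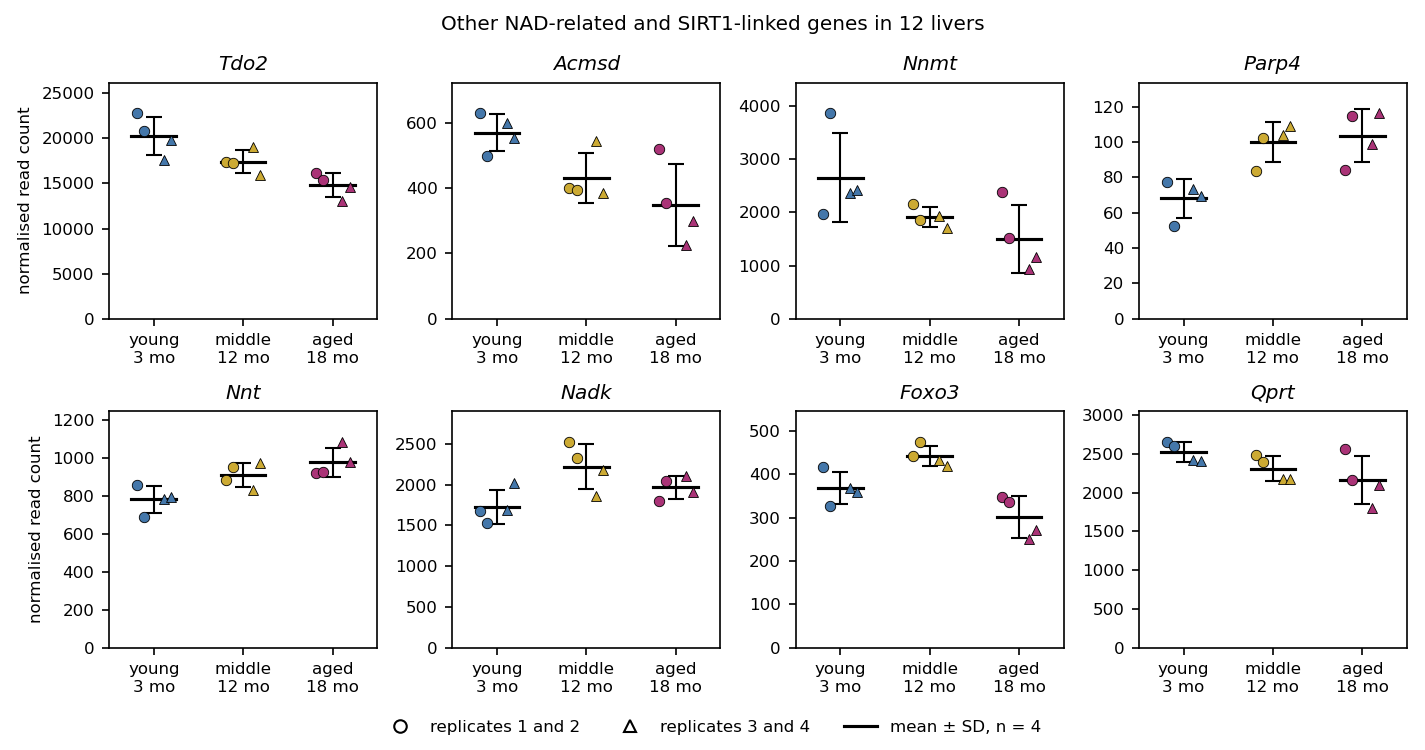
Normalized read counts of Tdo2, Acmsd, Nnmt, Parp4, Nnt, Nadk, Foxo3 and Qprt in each liver by age, on linear axes from 0; circles are replicates 1 and 2, triangles replicates 3 and 4, and lines the mean with bars of ± 1 SD (n = 4). Tdo2 steps down from a mean of 20246 in young to 14800.3 in aged livers without overlap, whereas in Nnmt the young and aged livers overlap.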

How the data were processed

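The authors deposited whole-number counts of reads per gene, not normalized, for 12 livers, with 92 synthetic spike-in transcripts. The submitters' processing notes list STAR 2.5.2b, SAMtools 1.9, featureCounts and mm10/GRCm38, with no role or order. The methods describe 4 young and 4 old livers and a directional kit, while atlas data are also mentioned for 3 ages, so the preparation of these 12 livers is uncertain.

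Group and replicate came from sample titles. Gene symbols, positions and lengths are from GENCODE M21, matched for 53274 of 53465 identifiers. Spike-ins were left out of library sizes. DESeq2 1.42.0 (median-of-ratios size factors, 1 fit over 12 samples, age as the only term, Wald tests and a likelihood ratio test, default filters) was run on 28449 genes with at least 1 count, with Benjamini-Hochberg adjustment over all genes tested and a threshold of 0.05. Intervals are 95% Wald intervals. Correlations used log2(normalized count + 1). The members and lists were chosen with earlier results of these data known. All 10 members were named, as were genes of the NAD and SIRT1 lists that were called in any comparison and some set by name; 5 clock genes were set by name. Other clock genes and cell markers were named after their values were seen. The DESeq2 and edgeR tests of aged against young livers were tried on simulated counts with known changes, and the other steps were not. Alternatives were edgeR 4.0.16 quasi-likelihood tests, TMM factors, a filter (10 counts in 4 samples), only the groups compared, the replicate number as a block, the spike-in set as covariate or alone, and leaving out each sample. The interaction of set and age was chosen after seeing the data. RefSeq promoters (GRCm38.p6) gave the sequences.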

Additional observations from a re-analysis of the deposited data

Results flagged for a closer look

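One value stood apart within its group. Nampt in middle-aged replicate 3 had 338 normalized counts, while the other 3 middle-aged livers lay between 403 and 413. The gap to the nearest liver took 0.868 of the group's range, above Dixon's 95% limit for 4 samples. Of 30 groups examined (10 genes at 3 ages) 1 was flagged, and chance gives 1.5. Without this liver the log2 fold change of aged against middle-aged livers was -0.40 in place of -0.34, with a DESeq2 adjusted p of 0.448 in place of 0.389.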

How the results depend on the processing

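None of the 10 genes was called under any of 21 settings (695 tests); the smallest adjusted p was 0.105, for Nampt across the 3 ages without aged replicate 3. Under settings other than leaving out a liver, 217 fold changes of the 10 genes kept their direction and 23 changed sign, none of them called; the cause was not tested.

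Counts of genes called, in the order aged to young, middle-aged to young, aged to middle-aged and across ages, moved by over 1.5 times from 484, 727, 117 and 865 as follows: edgeR 172, 280, 13 and 234; within set A 137, 251, 34 and 270; within set B 305 for middle-aged livers against young ones and 307 for aged livers against middle-aged ones; only the groups compared 290 (aged against young) and 1166 (middle-aged against young). With the replicate number as a block they were 385 for middle-aged against young livers, 426 for aged against middle-aged livers and 451 across ages. Deviations of same-numbered livers from their age means had correlations of -0.30 to 0.16. The numbers follow the spike-in sets, and whether same-numbered livers shared a step of processing was not tested. Under the block no member was called. Without 1 liver the counts ranged from 237 to 1291, 345 to 840, 45 to 198 and 496 to 1637, and list genes called from 1 to 7, 0 to 2, 0 to 1 and 2 to 8.

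The changed signs were these. For aged against young livers, set A gave -0.43 for Sirt1, and set B gave -0.0013 for Sirt2, -0.016 for Sirt3, -0.15 for Sirt4, 0.27 for Nampt, -0.049 for Naprt and, among the list genes, -0.22 for Parp1. For middle-aged against young livers, the replicate block gave -0.000604 and set A -0.052 for Sirt1, set A gave 0.0097 for Sirt3, and set B gave -0.11 for Sirt5, 0.0601 for Sirt7 and -0.019 for Naprt. For aged against middle-aged livers, set A gave -0.37 for Sirt1 and 0.079 for Sirt2, set B gave -0.073 for Sirt7, -0.0296 for Naprt and -0.019 for Cd38. Sirt5, just below 0 there, became 0.0012 with edgeR, 0.000598 with TMM factors, 0.00094 with only the groups compared, 0.0029 with the block, 0.0057 with the set as covariate and 0.14 in set B.

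Leaving out 1 liver changed a sign where the range spans 0. For aged against young livers the ranges were -0.052 to 0.24 (Sirt1), -0.018 to 0.078 (Sirt3), -0.11 to 0.16 (Sirt4), -0.038 to 0.10 (Sirt5), -0.10 to 0.078 (Sirt7), -0.20 to 0.018 (Nampt), -0.076 to 0.70 (Bst1), -0.051 to 0.11 (Nadk2) and -0.078 to 0.088 (Parp1). For middle-aged against young livers they were -0.15 to 0.19 (Sirt1), -0.033 to 0.11 (Sirt5) and -0.15 to 0.028 (Sirt7). For aged against middle-aged livers they were -0.060 to 0.21 (Sirt1), -0.093 to 0.021 (Sirt2), -0.089 to 0.084 (Sirt5), -0.0091 to 0.13 (Sirt7) and -0.054 to 0.11 (Naprt).

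Per kb of the longest transcript the levels were 573 for Naprt, 242 for Sirt2, 147 for Sirt3, 115 for Sirt7, 54.3 for Sirt5, 36.6 for Sirt4, 25.4 for Cd38 and 10.4 for Sirt6, higher than per kb of exon because that length is shorter. Sirt6 had 13 to 33 reads per library.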

Other observations

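Beyond the 10 genes, a pair of NAD-related genes split the aged livers by spike-in set, and they are named after their values were seen. Parp16, an ADP-ribosyltransferase of the endoplasmic reticulum, had 956, 732, 253 and 233 normalized counts in aged replicates 1 to 4, against 207 to 248 in young and 248 to 367 in middle-aged livers. Nt5e, the surface 5'-nucleotidase CD73, had 12.0, 14.4, 135 and 93.9 in aged replicates 1 to 4, against 36.9 to 67.5 in young and 28.1 to 61.9 in middle-aged livers. The set difference for aged against young livers was -1.84 (SE 0.29) for Parp16 and 2.61 (SE 0.62, adjusted p = 0.0055) for Nt5e, on the log2 scale in DESeq2. Neither was called in a comparison of ages over all 12 livers (for aged against young, adjusted p = 0.0762 for Parp16 and log2 fold change 0.40, SE 0.60, for Nt5e). Of the 55 genes of the NAD and SIRT1 lists, not all of them tested, these were the 2 called for a set difference. Over all genes 0.732% of 10799 were called. Ppargc1a came next, with a set difference of 1.88 (SE 0.535, DESeq2 adjusted p = 0.0541).

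For a gene of nicotinamide clearance and one of the tryptophan route, aged replicate 1 lay nearest the young livers for Acmsd (521 against 499 to 629) and Nnmt (2386 against 1970.1 to 3864). Among the aged livers it lay farthest from the young ones for Naprt (1349.8 against 923 to 1121) and Sirt4 (94.3 against 56.6 to 80.6). The share of all genes on either side was not counted. Leaving out aged replicate 1 changed the number of genes called for aged against young livers from 484 to 1291.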
